A study of Mus musculus with 12 samples.

Results

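The AP-1 and immediate early genes of the mouse liver were followed in hepatocytes, in macrophages and in the sinusoidal endothelial cells (SEC) that form the walls of liver capillaries, each taken from mice given diethylnitrosamine (DEN) and from untreated mice. DEN is an alkylating carcinogen that hepatocytes activate. The set held 10 genes, Fos, Fosb, Fosl2, Jun, Junb, Jund, Egr1, Atf3, Ier2 and Ier3, of 12471 genes tested, and each gene was read from whichever of its probes was brightest on average over the 12 arrays. The 6 groups, with 2 Illumina bead arrays each, were DEN and untreated hepatocytes, DEN and untreated macrophages, and DEN and untreated SEC. All mice were male C57Bl/6 and are marked wild type in the sample titles. The DEN mice had received 25 mg/kg into the peritoneum at 25 days of age and their tumours were followed over the next 9 months, and the untreated mice were of the same age. The titles mark the control arrays UTX, which was read as untreated, and the labels do not say whether DEN cells came from tumour or from surrounding liver. RNA of the DEN mice was pooled from 3 to 4 animals. The labels give no isolation method and nothing on separate pools behind the 2 arrays of each group. The p-values therefore reflect array-to-array spread alone, and that spread may be technical.

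AP-1 is a dimeric transcription factor made of a Fos family protein with a Jun family protein, or of Jun proteins alone, and Atf3 can join such dimers. Immediate early genes are those that a cell transcribes within minutes of a growth, stress or inflammatory signal, without making new protein first, and they include most of AP-1 and the zinc finger factor Egr1. In the liver they are known to rise in hepatocytes at the start of regeneration, in macrophages on activation, and in many cell types when tissue is taken apart. Mouse work has shown that Jun is needed for the early steps of DEN-induced liver tumours.

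Values are the authors' deposited log2 values, on which the background of an array lay at 7.42 to 7.57, the 95th percentile of olfactory and vomeronasal receptor probes. Each member cleared that background on both arrays in 5 or 6 groups. Fos, Fosb and Atf3 were below it on both arrays of untreated hepatocytes, so their folds there are given as at least a number, computed against the background. Between 14314 and 21552 probes per array lay above background, replicates correlated across genes with r of 0.991 to 0.998, and hepatocyte replicates differed most (SD of the differences 0.18 in DEN and 0.14 in untreated hepatocytes, 0.08 to 0.10 elsewhere). Untreated cells carried markers of their labels, with Apoa1 at 14.75 in hepatocytes, Clec4f at 14.33 in macrophages and Stab2 at 13.32 in SEC. Other markers were dim: Alb (8.39 with DEN and 9.20 without), Tat (7.70 untreated) and Fgb (7.73 untreated) in hepatocytes, and Kdr (7.51) and Bmp2 (7.90) in untreated SEC. Untreated macrophages also carried the SEC markers Clec4g (12.99) and Stab2 (10.77) and the stellate cell marker Dcn (13.19). Over the whole lists they averaged 9.63 to 9.65 for SEC markers and 8.39 for stellate cell markers. The part of those cells in the macrophage values was not tested. Untreated SEC also carried Kupffer cell markers, with Clec4f at 13.39 and Vsig4 at 14.21, while the SEC marker Clec4g stood at 14.56. Their mean over the Kupffer cell markers, given below, lay above that over 8 SEC markers on both arrays. The part of Kupffer cells in the SEC values was not tested. The DEN macrophages went against the markers of their label in part. The mean level over 7 Kupffer cell markers was 8.97 to 9.05 in DEN macrophages and 13.31 in untreated macrophages, and it was 11.96 to 12.01 in DEN SEC and 12.10 to 12.14 in untreated SEC. In bulk samples such as these a smaller number of cells of a type and less RNA per cell cannot be told apart.

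The sequence before the annotated start is shown for the 6 genes that changed with DEN and held a match to a CRE core, its Jun variant or an NF-kB site within 150 bases before the start. Promoters of 8 members were matched by symbol in the RefSeq table of build GRCm38.p6. The windows ran from 250 bases before to 50 bases after the start, and both strands were searched. The motifs were picked after the sequences had been seen. They were the cAMP response element CRE (TGACGTCA) and its core TGACG, which lies within it, the AP-1 element TRE (TGACTCA), the variant TGACATCA known from the Jun promoter, the EGR site GCGNGGGCG, the CArG box of serum response factor and the NF-kB site. Below, the 150 bases before the start are written 5′ to 3′ on the strand of the gene, and capitals mark the CRE core in Fos, Fosb, Junb and Atf3 (on the other strand in Atf3), the variant in Jun and the NF-kB match in Ier3.
Fos (chr12:85473740-85473889, plus strand): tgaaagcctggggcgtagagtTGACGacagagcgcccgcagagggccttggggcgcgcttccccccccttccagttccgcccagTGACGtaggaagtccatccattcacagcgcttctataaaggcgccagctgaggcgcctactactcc
Fosb (chr7:19310046-19310195, minus strand): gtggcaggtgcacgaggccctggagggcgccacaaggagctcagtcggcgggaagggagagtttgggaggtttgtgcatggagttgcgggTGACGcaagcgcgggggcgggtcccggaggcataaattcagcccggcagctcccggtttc
Junb (chr8:84978749-84978898, minus strand): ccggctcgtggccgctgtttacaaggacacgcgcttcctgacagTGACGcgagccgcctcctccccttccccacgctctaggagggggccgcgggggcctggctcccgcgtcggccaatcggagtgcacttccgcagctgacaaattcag
Atf3 (chr1:191183334-191183483, minus strand): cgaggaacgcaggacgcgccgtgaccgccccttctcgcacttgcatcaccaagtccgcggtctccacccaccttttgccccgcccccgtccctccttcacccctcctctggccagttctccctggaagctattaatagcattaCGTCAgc
Jun (chr4:95052223-95052372, minus strand): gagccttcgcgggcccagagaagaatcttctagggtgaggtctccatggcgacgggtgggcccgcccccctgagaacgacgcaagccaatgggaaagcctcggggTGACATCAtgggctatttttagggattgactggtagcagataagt
Ier3 (chr17:35821563-35821712, plus strand): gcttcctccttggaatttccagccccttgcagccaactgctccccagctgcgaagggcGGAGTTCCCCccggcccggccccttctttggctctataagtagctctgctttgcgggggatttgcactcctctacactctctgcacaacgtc

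The CRE core was found in 4 of the 8 member windows, those of Fos, Fosb, Junb and Atf3, against 20.8% of all 32851 promoter windows. In Fos it began at positions -129 and -66 from the start, in Fosb at -60, in Junb at -106 and in Atf3 at -7. The NF-kB motif matched in Fos, Fosb, Fosl2 and Ier3 (4.51% of all windows), the EGR site in Fosb and Fosl2 (5.55%), and the variant TGACATCA in Jun (3.62%). No member window held the full CRE (1.79%), the TRE (5.20%) or the CArG box (1.63%), which says only that these letters are not in these windows. Jund held none of the 7 motifs. A match is a string of letters and not a site shown to be bound.

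**Figure D1:**
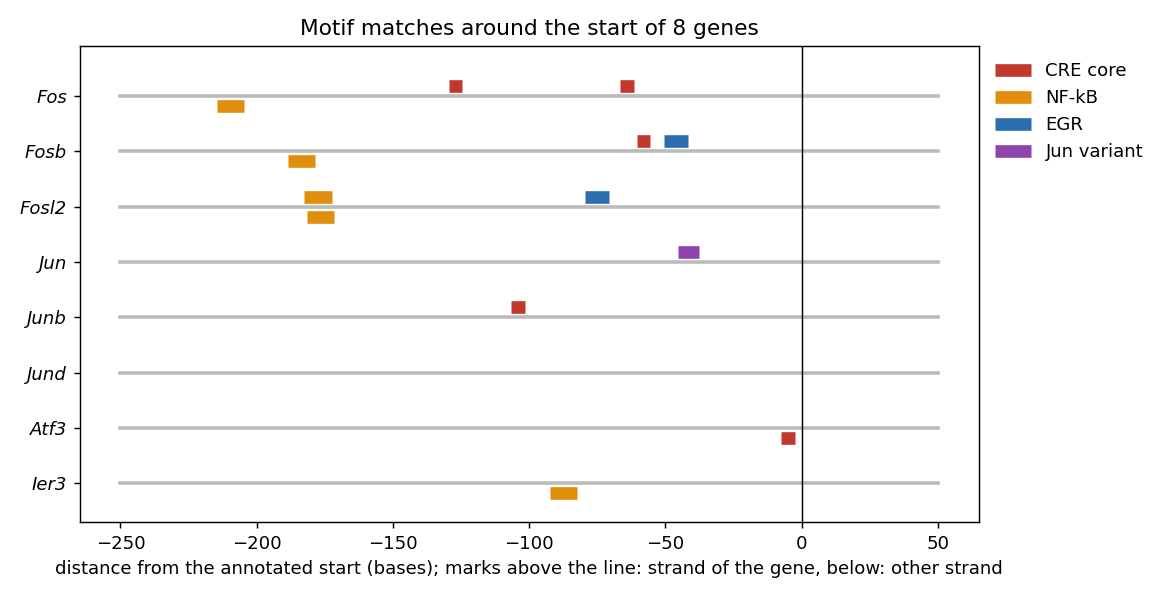
Motif matches by distance from the annotated start (in bases) for 8 genes, with matches on the strand of the gene above the grey line and those on the other strand below it. The CRE core lies within 150 bases before the start in Fos, Fosb, Junb and Atf3, and Jund has no match.

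With DEN, the set rose in hepatocytes and macrophages and for the most part did not pass the test in SEC. In DEN against untreated hepatocytes 8 of 10 genes were higher, 0 were lower and Jund and Ier2 did not pass, where 31.7% of all 12471 genes were called higher and 36.0% lower (limma, adjusted p under 0.05). In macrophages 9 of 10 were higher, 0 were lower and Ier2 did not pass, where 18.6% of all genes were called higher and 24.3% lower. In SEC 3 of 10 were higher (Fos, Egr1 and Ier3) and 0 lower, where 2.56% of all genes were called higher and 0.994% lower. The median log2 change of the 10 genes was 2.44 in hepatocytes, 2.02 in macrophages and 0.20 in SEC, and that of all genes was -0.02 in each. With Fos, Fosb and Atf3 at their lower bounds the hepatocyte median was 2.41. Both DEN arrays lay above both untreated arrays for 8 members in hepatocytes (37.1% of all genes), 9 in macrophages (32.2%) and 7 in SEC (19.0%). A rise of at least 2-fold was reached by 8 members in hepatocytes, 6 in macrophages and 1, Egr1, in SEC. The share of all genes with such a rise was not computed. The smallest of these rises, Jun in hepatocytes, Fos in macrophages and Egr1 in SEC, exceeded the changes of 94.1%, 99.2% and 99.5% of all genes.

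**Figure D2:**
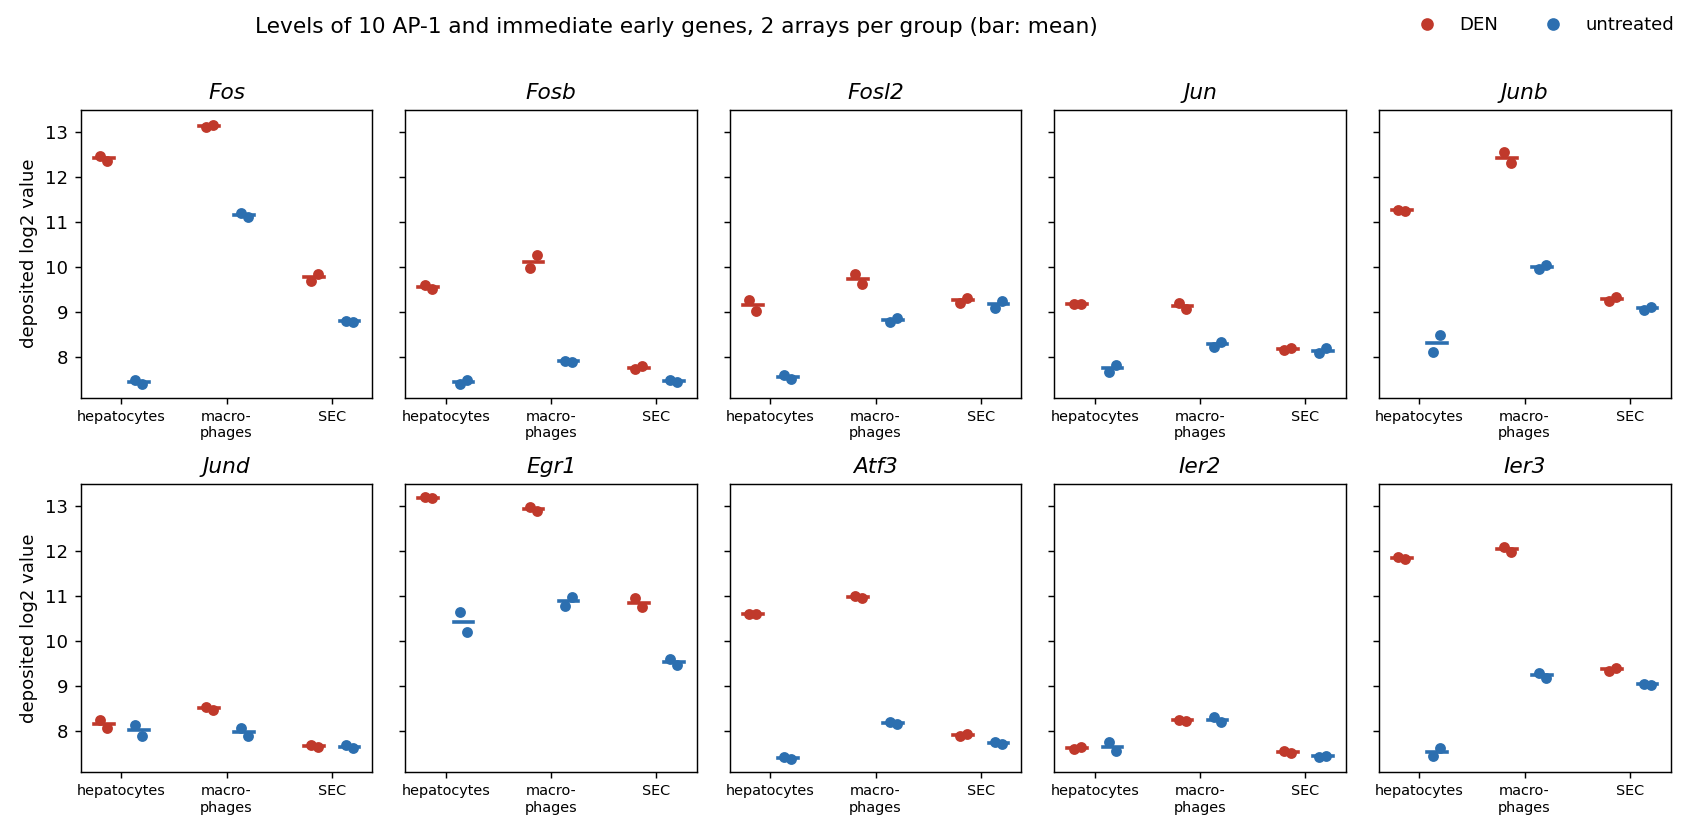
Deposited log2 value of each gene on each of the 12 arrays, with DEN arrays in red left of the untreated arrays in blue and a bar at the mean of each group. The gap between DEN and untreated arrays is wide in hepatocytes and macrophages for Fos, Fosb, Junb, Egr1, Atf3 and Ier3, and Ier2 is level in all 3 cell types.

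Markers of blood cells moved with these changes. In hepatocytes 8 of 8 neutrophil markers were higher, with a list mean of 10.97 on both DEN arrays and 7.42 on both untreated arrays, where 7 of the 8 were below background. The 8 of 8 erythroid and platelet markers were higher there as well (12.62 to 12.64 in DEN and 7.99 to 8.16 in untreated hepatocytes), and so were 5 of 6 monocyte markers (10.92 to 10.96 against 8.49 to 8.52). The 12 hepatocyte markers had 0 higher and 8 lower (11.22 to 11.26 against 12.41 to 12.42). In macrophages 8 of 8 neutrophil markers (11.47 to 11.70 in DEN and 8.65 to 8.67 in untreated) and 4 of 6 monocyte markers (11.53 to 11.56 against 9.96 to 10.03) were higher, and 7 of 7 Kupffer cell markers were lower. In SEC 7 of 8 neutrophil markers (9.32 to 9.34 against 8.08 to 8.09), 6 of 8 erythroid and platelet markers (10.61 to 10.63 against 8.64 to 8.65) and 5 of 12 hepatocyte markers (9.37 to 9.40 against 8.13) were higher, while of the 7 for Kupffer cells 1 was lower. Of the remaining lists, those of T and NK cells (4 of 5), B and plasma cells (3 of 4), stellate cells (6 of 7), cholangiocytes (4 of 4) and SEC (5 of 8) had markers that were higher in DEN hepatocytes. Of 7 Kupffer cell markers 4 were higher there and 1, Clec4f, was lower. In DEN macrophages T and NK cells had 4 of 5, B and plasma cells 4 of 4, erythroid cells and platelets 7 of 8, and cholangiocytes 1 of 4 higher, while hepatocytes had 5 of 12 and SEC and stellate cells 3 each lower and 1 each higher. In DEN SEC monocytes had 2 of 6, T and NK cells 1 of 5, stellate cells 3 of 7, cholangiocytes 2 of 4, SEC 1 of 8 and B and plasma cells 0 of 4 higher. The part of these cells in the changes of the 10 genes was not tested.

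The Fos family supplies proteins that pair with Jun proteins in AP-1 dimers. Fos itself, the founding member, had 12.47 and 12.36 in DEN hepatocytes, against 7.49 and 7.41 in untreated hepatocytes. That made it at least 30.0-fold higher in DEN hepatocytes (means 12.42 ± 0.07 and 7.45 ± 0.06, SD, n = 2 each, adjusted p = 8.28e-13). In macrophages Fos had 13.11 and 13.16 with DEN, against 11.19 and 11.10 without, a log2 difference of 1.98 ± 0.07 (SE, adjusted p = 1.39e-09). In SEC it had 9.69 and 9.85 with DEN, against 8.80 and 8.78 without, a difference of 0.98 ± 0.07 (adjusted p = 3.98e-06). The DEN arrays lay above the untreated arrays in all 3 cell types, with no overlap.

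Fosb, a paralogue of Fos that also makes a short splice form, had 9.61 and 9.50 in DEN hepatocytes, against 7.39 and 7.49 in untreated hepatocytes. It was at least 4.14-fold higher with DEN (means 9.56 ± 0.08 and 7.44 ± 0.07, SD, n = 2 each, adjusted p = 1.44e-09). Macrophages had 9.98 and 10.26 with DEN, against 7.92 and 7.89 without (2.21 ± 0.08, adjusted p = 3.24e-09). The groups were far apart in both cell types, and Fosb was a dim transcript without DEN in all 3. In SEC it had 7.73 and 7.80 with DEN, against 7.48 and 7.45 without, and the difference of 0.30 ± 0.08 missed the threshold (adjusted p = 0.0926). With the background of each array subtracted it passed (1.94, adjusted p = 0.000167), and it passed when the spread came from the SEC arrays alone (adjusted p = 0.012) or when either DEN macrophage array was left out (adjusted p = 0.0241).

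Fosl2, which encodes the Fra-2 protein, had 9.27 and 9.03 in DEN hepatocytes, against 7.59 and 7.50 in untreated hepatocytes (1.60 ± 0.10, adjusted p = 6.19e-08). Its macrophage values were 9.85 and 9.62 with DEN, against 8.78 and 8.87 without (0.91 ± 0.10, adjusted p = 1.9e-05). In SEC the values overlapped, at 9.21 and 9.32 with DEN and 9.09 and 9.25 without (0.10 ± 0.10, adjusted p = 0.875). DEN hepatocytes and DEN SEC did not differ in Fosl2 beyond the error (-0.11 ± 0.10, adjusted p = 0.324). Of its 3 probes the other two were dim. The only other probe above background on both arrays of a group read 7.77 and 7.67 in DEN macrophages and at most 7.41 on every other array. With the mean of the probes that cleared background this way the hepatocyte rise was 0.80.

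The Jun family binds DNA alone or with Fos proteins. Junb, which can restrain Jun, was the Jun gene with the largest changes, at 11.27 and 11.25 in DEN hepatocytes, against 8.11 and 8.49 in untreated hepatocytes (2.96 ± 0.11, adjusted p = 9.95e-10). Macrophages had 12.55 and 12.32 with DEN, against 9.95 and 10.04 without (2.43 ± 0.11, adjusted p = 1.42e-08). The 2 untreated hepatocyte arrays differed by more than any other pair of Junb arrays, yet both lay well below the DEN arrays. In SEC the values were 9.25 and 9.34 with DEN and 9.05 and 9.12 without (0.21 ± 0.11, adjusted p = 0.507).

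Jun had 9.18 and 9.17 in DEN hepatocytes, against 7.66 and 7.83 in untreated hepatocytes (1.42 ± 0.07, adjusted p = 1.6e-08). The macrophage values were 9.21 and 9.06 with DEN, against 8.23 and 8.34 without (0.85 ± 0.07, adjusted p = 3.29e-06). The Jun levels of DEN hepatocytes and DEN macrophages overlapped. In SEC Jun had 8.15 and 8.21 with DEN and 8.09 and 8.19 without, and the groups overlapped (0.04 ± 0.07, adjusted p = 0.97).

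Jund, the Jun gene that resting cells are known to express, had 8.26 and 8.07 in DEN hepatocytes and 8.14 and 7.89 in untreated hepatocytes, which overlapped (0.15 ± 0.09, adjusted p = 0.187). Without the first untreated hepatocyte array it passed (0.28, adjusted p = 0.0289). In macrophages it had 8.54 and 8.48 with DEN, against 8.07 and 7.89 without, the smallest passing rise of the set there (0.53 ± 0.09, adjusted p = 0.000742). In SEC it stood at 7.69 and 7.65 with DEN and 7.70 and 7.62 without (0.01 ± 0.09, adjusted p = 0.997). All Jund values lay within 1 log2 unit of each other, a narrow range beside that of Junb.

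Egr1, a zinc finger factor induced through serum response factor, was the only member that rose at least 2-fold in every cell type. It had 13.20 and 13.18 in DEN hepatocytes, against 10.65 and 10.20 in untreated hepatocytes (2.76 ± 0.13, adjusted p = 6.42e-09). In macrophages it had 12.98 and 12.90 with DEN, against 10.79 and 10.99 without (2.05 ± 0.13, adjusted p = 2.33e-07). In SEC it had 10.97 and 10.76 with DEN, against 9.60 and 9.47 without (1.33 ± 0.13, adjusted p = 8.09e-05), the 60th largest rise of all genes in SEC. Unlike Fos, Egr1 was well above background in untreated hepatocytes, where its level exceeded that of untreated SEC by 0.89 ± 0.13 (adjusted p = 8.12e-05).

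Atf3, a stress-induced factor that often represses its targets, had 10.60 and 10.61 in DEN hepatocytes, against 7.43 and 7.39 in untreated hepatocytes. It was at least 8.55-fold higher with DEN (means 10.60 ± 0.01 and 7.41 ± 0.03, SD, n = 2 each, adjusted p = 1.07e-12). In macrophages it had 11.00 and 10.97 with DEN, against 8.20 and 8.17 without (2.80 ± 0.05, adjusted p = 6.06e-12), the 42nd largest rise of all genes there. Replicates of Atf3 were close in every group, so even its small SEC difference was near the threshold. In SEC it had 7.89 and 7.95 with DEN, against 7.76 and 7.72 without (0.18 ± 0.05, adjusted p = 0.0653). The SEC call was made with background subtracted (0.67, adjusted p = 0.00235), with cyclic loess (adjusted p = 0.0413), with no filter on dim probes (adjusted p = 0.0339) with the mean of all probes of a gene (adjusted p = 0.0286) and without either DEN hepatocyte array (adjusted p = 0.0414).

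Ier3 and Ier2 are both named for early induction, and their values differed. Ier3, which protects cells from apoptosis downstream of NF-kB and stress kinases, had 11.87 and 11.83 in DEN hepatocytes, against 7.45 and 7.63 in untreated hepatocytes (4.31 ± 0.07, adjusted p = 1.86e-12). In macrophages it had 12.10 and 11.99 with DEN, against 9.30 and 9.19 without (2.80 ± 0.07, adjusted p = 1.2e-10). In SEC it had 9.34 and 9.41 with DEN, against 9.05 and 9.03 without (0.34 ± 0.07, adjusted p = 0.0186). That SEC call was lost with background subtracted (0.47, adjusted p = 0.826) and without any of the 4 SEC arrays (adjusted p = 0.0781 to 0.18).

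Ier2, a nuclear protein of the same early class, did not pass in any cell type. It had 7.60 and 7.65 in DEN hepatocytes and 7.77 and 7.56 in untreated hepatocytes (-0.04 ± 0.07, adjusted p = 0.62). Macrophages had 8.25 and 8.23 with DEN and 8.31 and 8.20 without (-0.01 ± 0.07, adjusted p = 0.92). DEN and untreated values overlapped in both. In SEC the values were 7.57 and 7.51 with DEN and 7.43 and 7.46 without (0.09 ± 0.07, adjusted p = 0.749). Ier2 was read from 1 dim probe, within 1 log2 unit of background on every array.

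**Figure D3:**
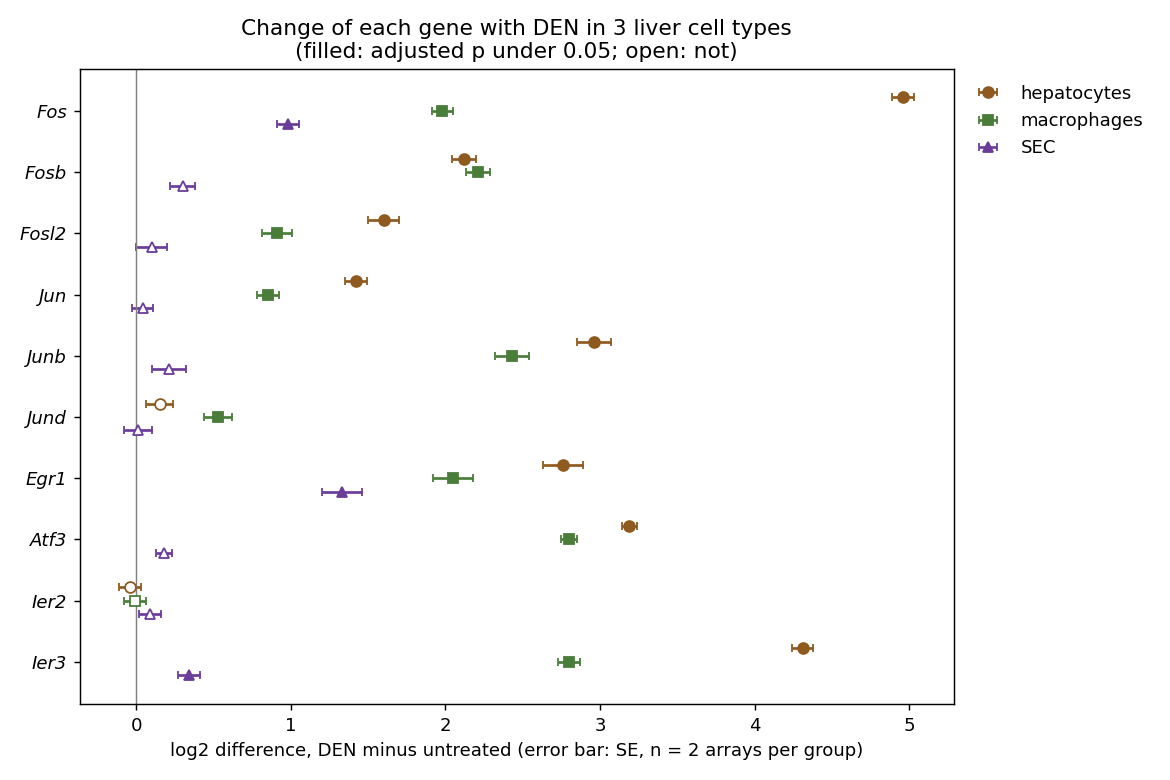
Log2 difference, DEN minus untreated, of each gene in hepatocytes (circles), macrophages (squares) and SEC (triangles), with its SE (n = 2 arrays per group) and filled symbols where the adjusted p was under 0.05. The hepatocyte points of Fos, Fosb and Atf3 are differences from untreated values below background and not exact sizes. Those of Fosl2 and Ier3 rest on untreated values that cleared background on 1 of 2 arrays, so their sizes are not exact either. Hepatocyte changes are the widest for Fos and Ier3, SEC changes exceed 0.34 in Fos and Egr1 alone, and Ier2 lies near 0 in each cell type.

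The size of the rise differed between the cell types, tested as the difference of the log2 changes. Between hepatocytes and macrophages 8 of 10 members differed (63.0% of all genes), 7 with the more positive change in hepatocytes (30.7% of all genes) and Jund with the more positive in macrophages (32.2%). The widest gaps were those of Fos, whose change was 2.98 ± 0.09 larger in hepatocytes (adjusted p = 6.11e-10), and Ier3 (1.51 ± 0.10, adjusted p = 1.54e-07), which also led with background subtracted (6.51 and 4.21). The differences of Egr1 (0.71 ± 0.18, adjusted p = 0.00555), Fosl2, Jun, Junb and Atf3 lay between 0.39 and 0.71, and their order changed with that setting. There Jund no longer passed (-0.80, adjusted p = 0.126). Fosb did not differ beyond its error (-0.09 ± 0.12, adjusted p = 0.516), but with the background subtracted its hepatocyte change was the larger by 1.78, and that difference passed. Against SEC, 8 of 10 changes were larger in hepatocytes (59.6% of all genes differed, 29.5% this way and 30.1% the other) and 9 of 10 in macrophages (33.0% differed, 15.3% this way and 17.6% the other). Fos (3.99 ± 0.09) and Ier3 (3.97 ± 0.10) led in hepatocytes against SEC, and Atf3 (2.62 ± 0.06), Ier3 (2.46 ± 0.10) and Junb (2.22 ± 0.16) in macrophages against SEC. With background subtracted 7 of 10 differed between macrophages and SEC, without Egr1 (0.59, adjusted p = 0.109) and Jund (1.12, adjusted p = 0.0744). Where untreated hepatocytes lay near background these sizes depend on the scale: with background subtracted the hepatocyte changes were 8.57 for Fos, 7.41 for Ier3, 6.75 for Atf3, 5.42 for Fosb, 4.22 for Fosl2 and 3.08 for Jun. In macrophages the same setting gave 3.64 for Fosb, 1.43 for Jun and 1.19 for Jund.

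Without treatment, macrophages held the highest level of most members and hepatocytes the lowest. Untreated hepatocytes were lower than untreated macrophages in 9 of 10 genes, all but Jund, where 36.5% of all genes were called lower and 27.9% higher. Fos was at least 12.5-fold lower in untreated hepatocytes (adjusted p = 1.37e-12), and Ier3 (-1.71 ± 0.07) and Junb (-1.70 ± 0.11) followed. Against untreated SEC, hepatocytes were lower in 6 genes and higher in 3, Egr1, Jund (0.36 ± 0.09) and Ier2 (0.22 ± 0.07), where 38.9% and 28.3% of all genes were called lower and higher. Untreated macrophages were higher than untreated SEC in 8 genes, led by Fos (2.35 ± 0.07) and Egr1 (1.36 ± 0.13), and lower in Fosl2 alone (-0.34 ± 0.10, adjusted p = 0.0151), where 23.1% and 22.2% of all genes were called higher and lower. The calls of Fosl2 (-0.50, adjusted p = 0.16) and Ier3 (0.29, adjusted p = 0.622) were lost with background subtracted. Only 6 members passed without the first untreated macrophage array, and 6 without the second untreated SEC array.

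Among the DEN groups the median difference of the 10 members, hepatocytes minus macrophages, was -0.47, beside -0.68 between the untreated groups. The medians of all genes were -0.06 and -0.04. DEN hepatocytes were lower than DEN macrophages in 8 of 10 genes (39.5% of all genes were lower and 27.8% higher), with gaps of -1.17 ± 0.11 in Junb and -0.72 ± 0.07 in Fos and -0.20 ± 0.07 in Ier3, while Jun (0.04 ± 0.07, adjusted p = 0.694) and Egr1 (0.25 ± 0.13, adjusted p = 0.114) did not pass. Of the 8 calls, 6 were left with background subtracted, where Ier3 (-0.21, adjusted p = 0.668) and Jund (-0.73, adjusted p = 0.0546) did not pass, and 6 members passed without the second DEN hepatocyte array. DEN hepatocytes were higher than DEN SEC in 8 genes (26.8% of all genes were higher and 40.2% lower), all but Fosl2 and Ier2. DEN macrophages were higher than DEN SEC in 10 of 10 genes (25.1% of all genes were higher and 28.8% lower), by 3.36 ± 0.07 in Fos, 3.14 ± 0.11 in Junb and 3.07 ± 0.05 in Atf3, and with background subtracted Fosl2 did not pass (0.60, adjusted p = 0.0795). The DEN and untreated comparisons share arrays, so these counts are not independent of each other.

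The order of the 6 group means differed from gene to gene. Fos fell into 6 separate steps, from DEN macrophages (13.13) through DEN hepatocytes (12.42), untreated macrophages (11.15), DEN SEC (9.77) and untreated SEC (8.79) to untreated hepatocytes (7.45), and every neighbouring pair passed the test. Junb kept the same order, with DEN and untreated SEC not separated (adjusted p = 0.507). Atf3 and Fosb kept it too. In Atf3 only DEN and untreated SEC were not separated, while in Fosb untreated macrophages (7.90), DEN SEC (7.76), untreated SEC (7.47) and untreated hepatocytes (7.44) formed a run without a passing step between neighbours. In Jun and Egr1 DEN hepatocytes came first and did not differ from DEN macrophages, and untreated macrophages did not differ from DEN SEC (adjusted p = 0.291 in Jun and 0.904 in Egr1). Egr1 was the member with untreated SEC at the bottom by a passing step (0.89, adjusted p = 8.12e-05). In Fosl2 DEN SEC (9.27), untreated SEC (9.17) and DEN hepatocytes (9.15) formed a run without a passing step. In Ier3 DEN SEC came next after DEN hepatocytes and lay 2.47 below them. Ier2 put both macrophage groups first (8.25 untreated and 8.24 DEN), a passing step of 0.58 above untreated hepatocytes (adjusted p = 1.9e-05), and no later neighbours differed.

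Over the 12 arrays, Pearson r between the 10 members ran from 0.199 (Fosl2 with Jund) to 0.993 (Fosb with Atf3), with a median of 0.793. Every r under 0.862 involved Fosl2, Jund or Ier2, so leaving those out narrows the range by that choice alone. The other 7 members (Fos, Fosb, Jun, Junb, Egr1, Atf3 and Ier3) had r of 0.862 to 0.993 (median 0.947). Ier2 correlated with the others at 0.209 to 0.679. The 12 points share 6 groups and 3 cell types, so these values describe the group means and carry no p. Among all genes the 5 closest to Fos were S100a6 (r = 0.995), Slc2a6 (0.988), Ly6d (0.986), Cd14 (0.984) and Cdkn3 (0.984). Those closest to Jun were Slpi (0.990), Ier3 (0.988), Arhgap22 (0.982), Cd200 (0.981) and Ccdc92 (0.981), and those closest to Egr1 were Ctse (0.969), Itga4 (0.969), Padi4 (0.953), Miat (0.953) and Cd200 (0.951). Junb stood 19th in likeness to Fos, Ier3 57th, Jun 67th, Atf3 129th, Fosb 172nd, Egr1 285th, Fosl2 802nd, Jund 1150th and Ier2 1672nd.

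Many other immediate early genes were higher with DEN as well. Of 40 listed, 36 were measured, and with DEN 27 were higher and 3 lower in hepatocytes (median 0.98, or 0.92 with genes below background at their bound), 24 higher and 2 lower in macrophages (median 0.81), and 4 higher and 0 lower in SEC (median 0.02). That is 75.0% higher in hepatocytes, 66.7% in macrophages and 11.1% in SEC, beside 31.7%, 18.6% and 2.56% of all genes. The shares called lower were 8.33%, 5.56% and 0.0%, beside 36.0%, 24.3% and 0.994%. In hepatocytes the largest were Ccn2, a matrix-associated growth factor (4.04 ± 0.10), the zinc finger factors Klf2 (3.17 ± 0.07) and Klf6 (3.07 ± 0.07), and the kinase phosphatase Dusp1 (2.61 ± 0.19). In macrophages they were Gadd45b, a stress kinase regulator (3.51 ± 0.05), the cytokine signalling inhibitor Socs3 (2.97 ± 0.12), the kinase Plk3 (2.70 ± 0.10) and the mRNA-destabilising protein Zfp36 (2.44 ± 0.04). In SEC the passing genes were Errfi1, an inhibitor of EGF receptor signalling (1.03 ± 0.11), Ccn1 (0.44 ± 0.05), Gadd45b (0.35 ± 0.05) and Zfp36 (0.34 ± 0.04).

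The remaining bZIP genes are relatives of Fos and Jun that share their type of DNA-binding domain. Of 19 listed 17 were measured, and 6 were higher and 4 lower in DEN hepatocytes (median 0.07), 7 higher and 6 lower in DEN macrophages (median 0.10), and 0 higher and 1 lower in DEN SEC (median -0.02). The share called higher was 35.3% in hepatocytes, near the 31.7% of all genes, and 41.2% in macrophages, beside 18.6% of all genes, and 35.3% were lower there, beside 24.3%. In hepatocytes 23.5% were lower, beside 36.0%, and in SEC 0.0% were higher and 5.88% lower, beside 2.56% and 0.994%. In hepatocytes Cebpb, a factor of the acute phase and of regeneration, rose by 2.15 ± 0.05, and the AP-1 repressor Jdp2 rose by 0.84 ± 0.08, while Atf5 (-1.02 ± 0.09) and Crem (-0.80 ± 0.06) fell. In macrophages Atf4 of the integrated stress response (0.94 ± 0.07), Cebpb (0.93 ± 0.05) and the AP-1 partner Batf (0.63 ± 0.09) rose and Batf3, a dendritic cell factor, fell (-1.02 ± 0.07). Mafg (-0.40 ± 0.08) was the gene that fell in SEC.

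Genes upstream of AP-1 included MAP kinases, their activating kinases and factors of the serum response. Of 25 listed 18 were measured, with 5 higher and 6 lower in DEN hepatocytes (median -0.02), 5 higher and 3 lower in DEN macrophages (median -0.04) and 0 of 18 passing in DEN SEC. The hepatocyte shares, 27.8% higher and 33.3% lower, are near the 31.7% and 36.0% of all genes, so those counts are no result about the list. In macrophages 27.8% were higher and 16.7% lower, beside 18.6% and 24.3% of all genes. In SEC only 2.56% of all genes were called higher and 0.994% lower, so 0 of 18 is no result about the list either. The kinase Map3k1, which activates the JNK pathway, rose in hepatocytes (1.97 ± 0.07) and macrophages (0.50 ± 0.07). Map2k3 (-0.87 ± 0.07) and Map2k4 (-0.74 ± 0.11) fell in hepatocytes, where Mapkapk2, a kinase downstream of p38, rose (0.68 ± 0.07). In macrophages Mapk9, which encodes JNK2, fell (-0.99 ± 0.06), as did Map3k8 (-0.49 ± 0.11), and the serum response cofactor Elk4 rose (0.44 ± 0.07).

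Of 23 genes described in the literature as AP-1 targets 17 were measured. In DEN hepatocytes 16 were higher and 0 lower (median 1.06), in DEN macrophages 8 were higher and 5 lower (median 0.12), and in DEN SEC 3 were higher and 1 lower (median 0.01). The shares called higher were 94.1%, 47.1% and 17.6%, beside 31.7%, 18.6% and 2.56% of all genes. Called lower were 0.0% in hepatocytes, beside 36.0% of all genes, and 5.88% in SEC, which was 1 gene, beside 0.994%. The share called lower in macrophages, 29.4%, is near the 24.3% of all genes, so that count is no result about the list. Hepatocytes had the cytokine Il1b (3.64 ± 0.10), the cyclin Ccnd1 (2.84 ± 0.06), the macrophage elastase Mmp12 (at least 6.26-fold, adjusted p = 1.31e-10) and the hyaluronan receptor Cd44 (2.05 ± 0.07) as the largest. The neutrophil and monocyte markers given above were higher on the same arrays, and their part in these values was not tested. In macrophages Il1b (2.93 ± 0.10), Mmp12 (2.50 ± 0.08) and the urokinase receptor Plaur (2.12 ± 0.06) rose and the haem-degrading enzyme Hmox1 fell (-3.46 ± 0.08). In SEC Il1b (1.51 ± 0.10), the stromelysin Mmp3 (at least 1.48-fold, adjusted p = 0.000185) and Vegfa (0.25 ± 0.05) rose and Hmox1 fell (-0.68 ± 0.08).

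Heat shock genes, which like immediate early genes are known to respond to the handling of cells, had 7 higher and 4 lower of 12 measured in DEN hepatocytes (median 0.33), 9 higher and 0 lower in DEN macrophages (median 0.65) and 5 higher and 0 lower in DEN SEC (median 0.21). The shares called higher were 58.3%, 75.0% and 41.7% in that order of cell types, beside 31.7%, 18.6% and 2.56% of all genes. The share called lower in hepatocytes, 33.3%, is near the 36.0% of all genes, so that count is no result about the list. The stress-induced chaperone Hspa1a was at least 17.8-fold higher in DEN hepatocytes (adjusted p = 8.28e-13), its twin Hspa1b at least 8.43-fold (adjusted p = 1.86e-12), and their cochaperone Dnajb1 rose by 1.83 ± 0.07 and Hspb1 by 1.81 ± 0.14. In macrophages Hspa1a (4.57 ± 0.06), Hspa1b (4.28 ± 0.05), Dnajb1 (1.82 ± 0.07) and Hsph1 (1.78 ± 0.06) rose, and in SEC Hspa1a (0.80 ± 0.06), Hspa1b (0.73 ± 0.05), Hspa5 (0.64 ± 0.10) and Hsp90aa1 (0.53 ± 0.12). Hspa1a and Hspa1b are near-identical copies whose probes may not separate them. These genes moved on the same arrays as the 10 members, and whether the changes are linked was not tested.

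**Figure D4:**
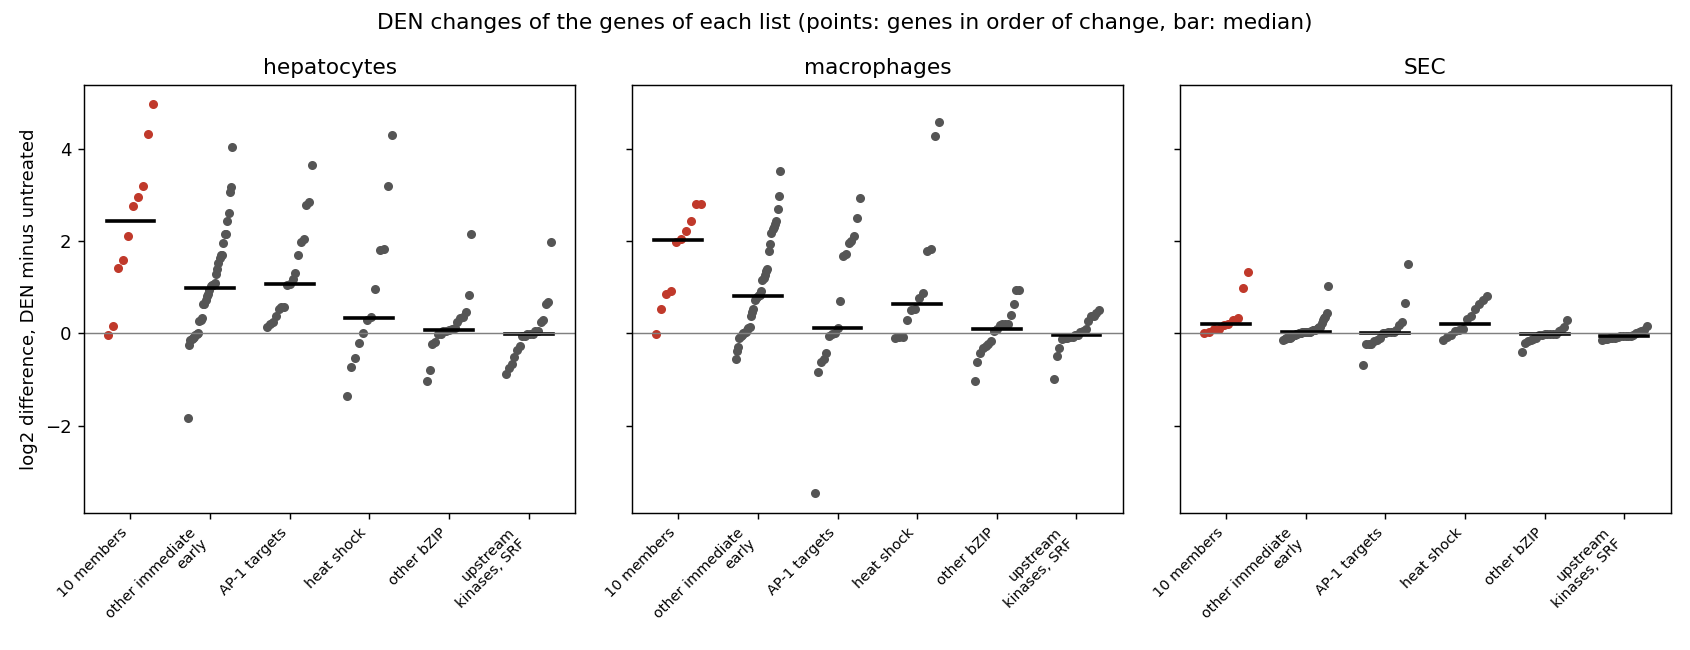
Log2 difference, DEN minus untreated, of each gene of the set (red) and of 5 related lists (grey) in hepatocytes, macrophages and SEC, with a bar at the median. In hepatocytes the set sits highest (median 2.44), followed by the AP-1 targets (1.06) and the other immediate early genes (0.98). In macrophages the set (2.02) and the other immediate early genes (0.81) sit highest. The bZIP and upstream lists have medians near 0.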

How the data were processed

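RNA was hybridised to 12 Illumina mouse bead arrays. The deposited table holds log2 values, as read from the values themselves, and lumi is the tool that the submitters' processing notes name. Its version, transform and background step are not stated there. The 12 columns share the same distribution (minimum 7.19, median 7.41, maximum 15.19), so the arrays had been scaled to one another, and with a floor that high, differences of dim probes come out small. A further table with 24 columns, whose names match no sample label, was not used. Among the 45281 probes, 34885 carried 1 symbol, 10378 none and 18 more than 1. Symbols were updated with the RefSeq gene table of GRCm38.p6, by Entrez ID for 34807 probes and by accession for 11, and 67 kept the platform's name. Probes had to exceed the 95th percentile of 1503 olfactory and vomeronasal receptor probes on both arrays of at least 1 group (24181 probes), and the probe with the highest mean stood for each gene. All 10 members passed, with 11 of their 13 probes.

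The 6 group means were fitted with lmFit and eBayes of limma 3.58.1 (R 4.3.3), which left 6 residual degrees of freedom. Tests were two-sided, with Benjamini-Hochberg adjustment over 12471 genes and a threshold of 0.05. All groups share 1 estimate of the spread per gene, so a gene has the same SE in every cell type, although hepatocyte replicates differed more. The number of arrays limits the precision. Values given as x ± y are SE for differences and SD for levels. Promoter motifs and figures were made in Python 3.11.15 with matplotlib 3.10.9.

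The members and gene lists were chosen with earlier results of these data known. Named genes were the 10 members, up to 4 passing genes per list and cell type with the largest change, and the 5 genes most correlated with Fos, Jun and Egr1. Cell type markers were lists for hepatocytes, Kupffer cells, SEC, neutrophils, monocytes, B and plasma cells, T and NK cells, stellate cells, cholangiocytes, and erythroid cells with platelets. Alternatives changed the filter, the background, the scaling, the probe rule, the source of the spread and its trend, added the replicate number as a block, or left out each array.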

Additional observations from a re-analysis of the deposited data

Results flagged for a closer look

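The DEN change of 9 of the 10 genes differed between cell types by the test of the difference itself (limma, adjusted p under 0.05), and these differences are given here as log2 values without explanation. The share of all genes that differed was 63.0% between hepatocytes and macrophages, 59.6% between hepatocytes and SEC and 33.0% between macrophages and SEC. In hepatocytes minus macrophages the difference was 2.98 for Fos, 0.70 for Fosl2, 0.57 for Jun, 0.52 for Junb, -0.38 for Jund, 0.71 for Egr1, 0.39 for Atf3 and 1.51 for Ier3. In hepatocytes minus SEC it was 3.99 for Fos, 1.82 for Fosb, 1.5 for Fosl2, 1.38 for Jun, 2.75 for Junb, 1.43 for Egr1, 3.01 for Atf3 and 3.97 for Ier3. In macrophages minus SEC it was 1.01 for Fos, 1.92 for Fosb, 0.81 for Fosl2, 0.81 for Jun, 2.22 for Junb, 0.53 for Jund, 0.72 for Egr1, 2.62 for Atf3 and 2.46 for Ier3. Ier2 did not differ in any of the 3. The hepatocyte values of Fos, Fosb and Atf3 rest on untreated levels below background, and with the background subtracted their differences from macrophages were 6.51, 1.78 and 2.88. With that setting the Jund difference between hepatocytes and macrophages was -0.80 and did not pass, and neither did the macrophage minus SEC differences of Egr1 (0.59) and Jund (1.12). The samples held 2 arrays per group, too few to test any array as an outlier.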

How the results depend on the processing

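The 15 counts of members called stayed within 1.5 times their value under all 20 alternatives: 8 to 9 of 10 higher in hepatocytes, 9 in macrophages and 2 to 4 in SEC. Of 600 values of single DEN changes 578 kept direction and side of the threshold, 11 gained a call, 5 lost it (Ier3 in SEC) and 6 reversed. Those that reversed were never past the threshold: Jun in SEC without the first untreated array (-0.01, against 0.09 without the second), Jund in SEC without the first DEN array (-0.01) or the second untreated array (-0.03), Ier2 in hepatocytes without the first untreated array (0.06, against -0.15 without the second), and Ier2 in macrophages with cyclic loess (0.04) or without the first untreated array (0.05, against -0.07 without the second). The cause was not tested. With each array left out in turn the same ranges held, with 0 lower in each cell type. There were 7 to 8, 8 to 9 and 9 members whose change differed (hepatocytes against macrophages, hepatocytes against SEC, macrophages against SEC), and with background subtracted the last count was 7. The genes passing in SEC numbered 443 (319 higher and 124 lower), 809 with the spread of the SEC arrays alone, and 278 to 609 with an array left out, and over 1.5 times lower without either DEN SEC array (284 and 292) or either untreated SEC array (281 and 278). With cyclic loess 370 SEC genes were higher and 60 lower. The replicate numbers pair nothing in the labels, and same-numbered arrays did not deviate together (r from -0.0604 to 0.0781). With the replicate number as a block 8, 9 and 3 members were higher in hepatocytes, macrophages and SEC, and no call of a member's DEN change moved. Signal over background limits the size of changes near 7.5.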

Other observations

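Of the 57 measured genes on the related lists that passed in both hepatocytes and macrophages, 15 went in opposite directions, a share of 26.3%, beside 1407 of 4017 (35.0%) over all genes. These genes were picked after their values had been seen. The cyclin Ccnd1 averaged 12.21 ± 0.01 in hepatocytes with DEN and 9.38 ± 0.04 without, and 10.52 ± 0.12 in DEN macrophages and 11.35 ± 0.02 in untreated macrophages (SD, n = 2 each). The haem-degrading enzyme Hmox1 averaged 8.15 ± 0.05 in hepatocytes with DEN and 7.57 ± 0.14 without, and 8.38 ± 0.12 in DEN macrophages and 11.84 ± 0.10 in untreated macrophages, and the difference of its changes was the largest of the 15 (4.03 ± 0.12, limma adjusted p = 3.23e-10). The mitochondrial chaperones Hspd1 and Hspe1 fell in hepatocytes (-1.36 and -0.73) and rose in macrophages (0.53 and 0.51), while Hspa1a rose in both. The small GTPase Rhob (1.96) and the ERK phosphatase Dusp6 (1.40) rose in hepatocytes and fell in macrophages (-0.55 and -0.38). Whether the fall of Kupffer cell markers on the DEN macrophage arrays has a part in these values was not tested.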
